A study of Mus musculus with 18 samples.

Results

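Uncultured long-term haematopoietic stem cells (LT-HSC) were set against uncultured short-term haematopoietic stem cells (ST-HSC), gene by gene, in a mouse study of early reprogramming. A gene entered the comparison when it reached 10 FPKM (fragments per kilobase of transcript, scaled to the library's mapped fragments, a level per length) in either library, which held for 7998 of 36655 gene symbols. Of these, 5508 reached 10 FPKM in both libraries, 1227 in LT-HSC alone and 1263 in ST-HSC alone. The difference is that of log2(FPKM + 1), ST-HSC minus LT-HSC, so a positive value means a higher level in ST-HSC, and fold differences below are on the FPKM + 1 scale. Just inside the FPKM limit lay 4930547N16Rik, whose higher level was 10.0025, and D5Ertd579e at 10.0028. Just outside it lay Obfc2a at 9.99788 and Hpse at 9.99677.

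Both libraries came from C57BL/6 all-iPS mice, which are grown wholly from induced pluripotent stem cells and carry Oct4, Sox2, Klf4 and c-Myc under doxycycline control. The LT-HSC_0 and ST-HSC_0 cells were taken with 0 days of culture and no doxycycline, so the transgenes are present in both and were not induced in either. Each library was made from 25 hand-picked cells by oligo-dT priming, tailing and PCR, and the labels do not name the surface markers that defined the cells. Each group is 1 library, so no difference between the uncultured libraries has a replicate check or a test of its own. The series of 18 libraries also holds uncultured myeloid progenitors (MP), and LT-HSC, ST-HSC and MP cultured for 2 or 4 days with doxycycline (2D, 4D) or, by title and study design, without it (2N, 4N); the doxycycline field of the N libraries reads yes. Fibroblast libraries were not used here.

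LT-HSC keep the blood system going for the life of the animal and are mostly quiescent. ST-HSC derive from them, carry more CD34, and feed multipotent progenitors, in which the receptor Flt3 and early lymphoid genes come on. Neutrophil granule genes such as Elane, Prtn3 and Mpo are switched on later, in myeloid progenitors, and NF-kB is a family of stress and cytokine responsive transcription factors that induces its own inhibitors.

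The library labelled LT-HSC held the transcripts of stem cells and, beside them, those of granule-forming myeloid cells. Among 12 stem cell markers, Slamf1 (the surface receptor CD150) stood at 34.6 FPKM in LT-HSC and was listed at 0 in ST-HSC and in MP. Vwf, which encodes von Willebrand factor, stood at 166 FPKM in LT-HSC, 0.112 in ST-HSC and 64.7 in MP. The other stem cell markers given here did not set LT-HSC above ST-HSC in the same way. Procr, the endothelial protein C receptor, stood at 215 FPKM in LT-HSC and 267 in ST-HSC. Fgd5 stood at 36.6 and 64.2 FPKM, and the transcription factor gene Hlf at 36.6 and 49.8. Mecom stood at 24.7 and 16.5 FPKM, and Ly6a, which encodes the surface antigen Sca-1, at 367 and 177. Kit stood at 30.7 and 44.6 FPKM, whereas Tek (1.53 and 5.05), Hoxb5 (1.51 and 0) and Ctnnal1 (0.329 and 0) lay below 10 FPKM in both. Procr, Fgd5, Hlf and Mecom were listed at 0 in MP, so both stem cell libraries carried transcripts that the MP library lacked.

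Markers of other marrow cells were checked in the same libraries. Elane, the gene of neutrophil elastase, stood at 13554 FPKM in LT-HSC, 44.7 in ST-HSC and 19235 in MP, so LT-HSC lay nearer to MP than to ST-HSC. Lyz2, lysozyme, stood at 333, 216 and 147 FPKM. Erythroid markers that were high in MP were low in both stem cell libraries, whereas megakaryocyte genes were mixed. Gata1 stood at 1.37 FPKM in LT-HSC, 1.47 in ST-HSC and 91.6 in MP, Klf1 at 2.07, 3.56 and 141, and Car1 at 4.57, 1.68 and 366. Pf4 was listed at 0 in both stem cell libraries and stood at 91.1 in MP, and Itga2b stood at 53.3, 42.5 and 139.5. The megakaryocyte and platelet list summed to 0.148% of the LT-HSC total, 0.117% of the ST-HSC total and 0.0886% of the MP total. The monocyte receptor gene Csf1r lay at 0.521 and 0.322 FPKM in LT-HSC and ST-HSC. Hbb-b1, Gp5, Cd79a, Cd3e, Il7r, Mcpt8, Cpa3, C1qa and Cdh5 were listed at 0 in both. Kdr, Col1a1 and Cxcl12 were below 1 FPKM in both, and the macrophage gene Emr1 stood at 18.9 FPKM in LT-HSC and was listed at 0 in ST-HSC. In pooled cells, fewer cells of a type and less RNA per cell cannot be told apart.

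The uncultured pair lay further apart than the cultured LT-HSC and ST-HSC pairs. ST-HSC was at least 2-fold higher at 1745 genes (21.8% of the 7998) and at least 2-fold lower at 1625 (20.3%). At 4-fold the counts were 748 higher (9.35%) and 743 lower (9.29%), 18.6% of genes in all. At 16-fold they were 175 higher and 226 lower. In the cultured pairs, filtered the same way, the share past 4-fold in either direction was 7.82% (2N), 9.23% (4N), 10.2% (2D) and 9.63% (4D). It was 17.6% between uncultured LT-HSC and MP, and 21.3% between uncultured ST-HSC and MP. Spearman's rank correlation, taken across genes and given as a description only, was 0.665 for the uncultured pair and 0.751 to 0.798 for the cultured ones. The median difference over all 7998 genes was 0.05, and the middle 50% of them lay between -0.76 and 0.86.

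**Figure D1:**
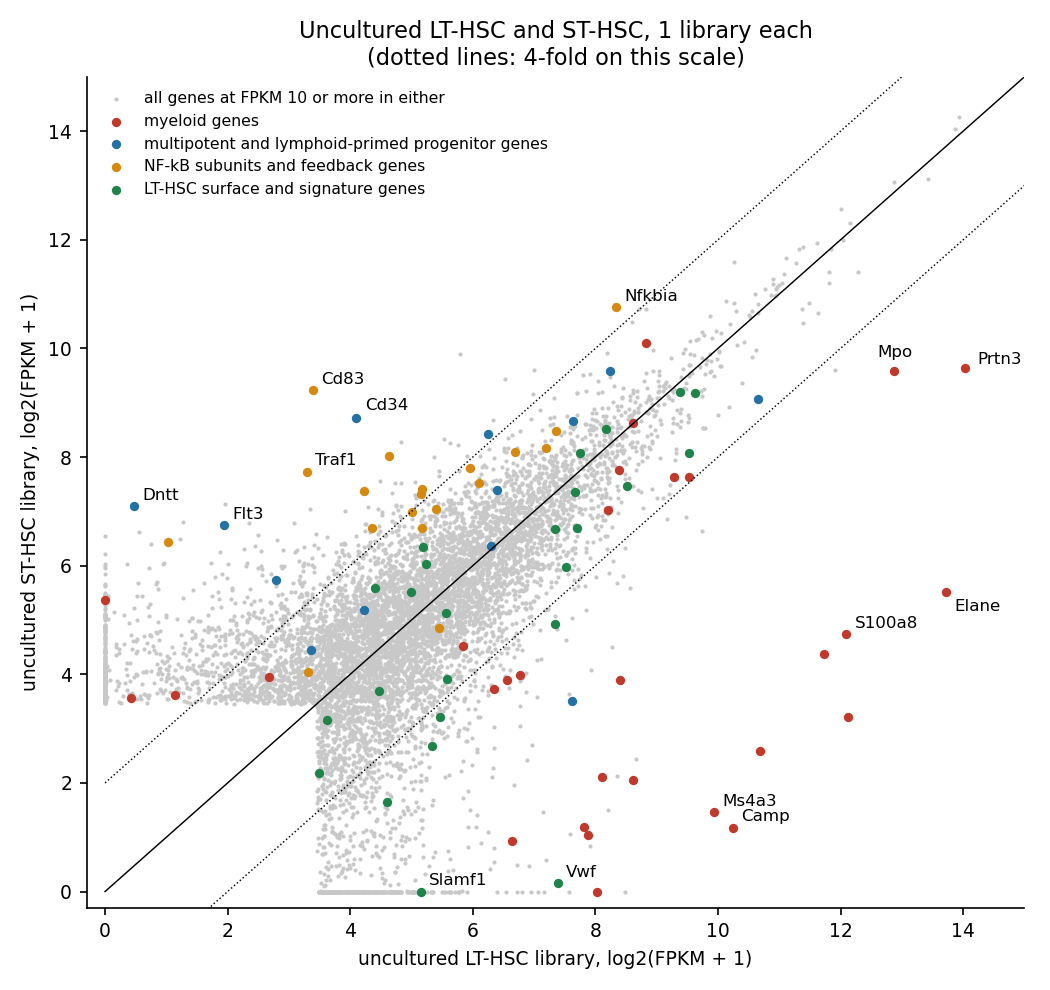
Levels of the 7998 genes in uncultured LT-HSC (x axis) and ST-HSC (y axis), both log2(FPKM + 1), 1 library each, with members of 4 gene lists in colour and dotted lines at a 4-fold difference. Granule genes such as Elane, S100a8 and Camp lie far to the lower right, while Cd83, Cd34, Dntt and Flt3 lie at the upper left.

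The share of large differences depended on the level of the gene. Between the uncultured libraries, 27.8% of the 3330 genes whose higher level was 10 to 30 FPKM were past 4-fold, against 14.2% of 3004 genes at 30 to 100, 7.92% of 1250 at 100 to 300 and 8.94% of 414 above that. The cultured pairs gave 11.3% to 14.1% in the lowest of these classes and 2.85% to 4.03% in the highest. Of the 748 genes at least 4-fold higher in ST-HSC, 208 were listed at 0 in LT-HSC, and of the 743 lower ones 251 were listed at 0 in ST-HSC. Both libraries also lacked single genes that every other blood library held: 30 genes at 10 FPKM or more in the other 14 blood libraries were below 1 FPKM in LT-HSC_0, and 29 in ST-HSC_0, against 0 to 5 in each of the other 13 (median 1). These gaps include genes named below (Mrps24, Trappc1, Cenpv and Vegfb in LT-HSC, and G6pdx and Tfpt in ST-HSC). Total FPKM was 708339 in LT-HSC and 677649 in ST-HSC, and 10549 and 10478 genes reached 1 FPKM.

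**Figure D2:**
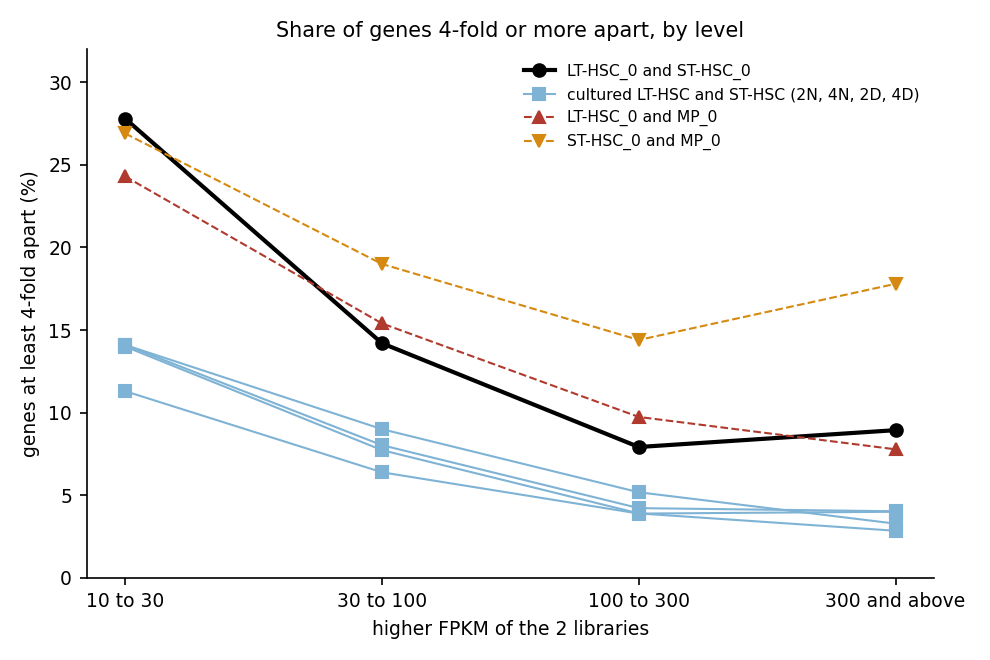
Share of genes at least 4-fold apart (y axis, percent) by the higher FPKM of the pair (x axis), for the uncultured LT-HSC and ST-HSC libraries, the 4 cultured pairs and each uncultured stem cell library with MP. The uncultured pair falls from 27.8% at 10 to 30 FPKM to 7.92% at 100 to 300, and lies above every cultured pair in each class.

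Among the gene lists chosen by function, myeloid genes had the median furthest from 0, and most were lower in ST-HSC. Of 40 genes, 30 reached the FPKM limit; 23 of them were at least 2-fold lower in ST-HSC, against 20.3% of all genes, and 5 were higher. The list's median difference was -3.84, against 0.05 over all genes. Its summed FPKM was 8.3% of the LT-HSC total, 0.602% of the ST-HSC total and 9.4% of the MP total.

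The serine proteases of the azurophil granule were among the most abundant transcripts of the LT-HSC library. Elane was 296-fold lower in ST-HSC, a difference of -8.21. Prtn3, proteinase 3, stood at 16683 FPKM in LT-HSC, 797 in ST-HSC and 21209 in MP, a difference of -4.39. Ctsg, cathepsin G, stood at 3379, 19.6 and 4362 FPKM (-7.36). Mpo, the myeloperoxidase of the same granules, stood at 7525, 765 and 13224 FPKM (-3.30). For all 4 genes LT-HSC was high, nearer to MP than to ST-HSC on the log scale, and ST-HSC low, though Prtn3 and Mpo remained among the more abundant transcripts of ST-HSC.

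Genes of later granules and of the neutrophil cytosol were also high in LT-HSC and MP and low in ST-HSC, with LT-HSC above MP for S100a9, S100a8, Camp, Fcnb and Cebpe. S100a9 and S100a8, the subunits of calprotectin, stood at 4442 and 4363 FPKM in LT-HSC, at 8.30 and 25.8 in ST-HSC and at 1999 and 3458 in MP. Camp, the cathelicidin precursor, stood at 1214 FPKM in LT-HSC, 1.26 in ST-HSC and 928 in MP. Its difference of -9.07 was the lowest among genes at 1 FPKM or more in both libraries, predicted genes aside. Fcnb, a ficolin, stood at 1652, 5.04 and 872 FPKM, and Ngp, neutrophilic granule protein, at 235, 1.07 and 255. Cebpe, the transcription factor of secondary granules, stood at 225, 1.27 and 132 FPKM, and Ms4a3 at 974, 1.77 and 1029.8. Ly6c2 stood at 261 FPKM in LT-HSC and 287 in MP and was listed at 0 in ST-HSC. Ltf, Mmp8 and Ly6g, other genes of the neutrophil lineage, were listed at 0 in both LT-HSC and ST-HSC.

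The 5 myeloid members at least 2-fold higher in ST-HSC were Sfpi1, Cebpa, Csf2rb, Csf2rb2 and Cd68. Sfpi1, the gene of PU.1, stood at 452 FPKM in LT-HSC, 1099 in ST-HSC and 419 in MP. Cebpa, which directs entry into the granulocyte and monocyte lineage, stood at 1.21, 11.2 and 12.5 FPKM. Csf2rb, the shared chain of the GM-CSF and IL-3 receptors, stood at 0.336, 10.8 and 12.9, and the lysosomal gene Cd68 at 0, 40.5 and 33.5. Related genes of the list were lower in ST-HSC: Csf2ra, which pairs with Csf2rb in the GM-CSF receptor, stood at 93.3, 13.8 and 80.7 FPKM, and the transcription factor gene Cebpd at 80.7, 12.3 and 104. Regulators and receptors of myeloid cells therefore did not share a direction.

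Genes that mark MP were also tallied through cultured libraries, which share no sample with the uncultured pair. The list, made after the data were seen, holds 47 genes at least 4-fold higher in MP than in LT-HSC and ST-HSC at both 2N and 4N, of which 34 reached the FPKM limit. Of these 34, 29 were at least 2-fold lower in ST-HSC_0 than in LT-HSC_0, against 20.3% of all genes. Another 2 were higher, against 21.8%, and the median was -3.86. Most of the 34 reached the limit in LT-HSC_0 alone, so their direction follows in part from the filter. The other 13 genes lay below it in both libraries. All 47 genes made up 2.49% of the LT-HSC_0 total, 0.121% of the ST-HSC_0 total and 3.08% of the MP_0 total. Without them, the count at least 4-fold lower in ST-HSC was 717 in place of 743, and the median of the remaining myeloid genes was -2.78. The part of myeloid cells in the 25 cells of LT-HSC_0 was not tested.

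The promoters of the genes with the largest myeloid levels are shown because these genes stood high together. That of Nfkbia is shown because it belongs to the opposite group described below. The sequences are RefSeq's, build GRCm38.p6, from 250 bases before to 50 after the gene start, 5′ to 3′ on the gene's strand. Capitals mark a match to GAGGAAG, a PU.1-type motif, in the first 3 and to GGGA, any base, TT, any base and CC in a row, a kB-type motif, in the last, on either strand. The windows are chr10:79886062-79886361 (plus strand) for Elane, chr10:79879417-79879716 (plus) for Prtn3, chr11:87793534-87793833 (plus) for Mpo and chr12:55492598-55492897 (minus) for Nfkbia.
Elane: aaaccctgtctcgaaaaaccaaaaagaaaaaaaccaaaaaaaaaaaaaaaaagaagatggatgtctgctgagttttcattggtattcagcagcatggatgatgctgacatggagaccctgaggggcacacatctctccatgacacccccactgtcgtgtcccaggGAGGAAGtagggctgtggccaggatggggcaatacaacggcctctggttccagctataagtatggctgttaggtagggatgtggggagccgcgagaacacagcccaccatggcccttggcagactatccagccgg
Prtn3: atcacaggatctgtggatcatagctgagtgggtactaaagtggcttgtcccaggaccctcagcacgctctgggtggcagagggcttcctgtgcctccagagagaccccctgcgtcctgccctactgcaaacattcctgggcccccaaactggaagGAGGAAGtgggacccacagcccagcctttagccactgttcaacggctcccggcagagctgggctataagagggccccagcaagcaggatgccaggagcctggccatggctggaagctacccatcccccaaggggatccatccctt
Mpo: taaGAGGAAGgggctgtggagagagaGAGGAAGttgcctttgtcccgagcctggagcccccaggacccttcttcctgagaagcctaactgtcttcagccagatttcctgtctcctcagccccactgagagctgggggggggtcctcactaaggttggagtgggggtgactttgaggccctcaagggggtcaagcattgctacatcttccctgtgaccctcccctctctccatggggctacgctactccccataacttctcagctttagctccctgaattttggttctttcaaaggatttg
Nfkbia: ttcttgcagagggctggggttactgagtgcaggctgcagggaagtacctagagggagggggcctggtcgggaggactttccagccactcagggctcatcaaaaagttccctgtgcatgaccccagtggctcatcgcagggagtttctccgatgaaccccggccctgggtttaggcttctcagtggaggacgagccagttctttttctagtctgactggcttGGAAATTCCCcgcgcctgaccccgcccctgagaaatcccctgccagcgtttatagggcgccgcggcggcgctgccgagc
The match begins 85 bases before the start in Elane, 95 in Prtn3, 247 and 224 in Mpo, and 29 in Nfkbia. GAGGAAG was found in 10 of the 19 myeloid genes at least 2-fold lower in ST-HSC that have a promoter entry (52.6%), and in 4152 of all 27025 promoters (15.4%). The 10 genes are Mpo, Elane, Prtn3, Ctsg, Csf2ra, Csf3r, Ly6c2, S100a8, Fcgr3 and Clec12a. The kB-type motif was found in none of these 19, in 372 of all promoters (1.38%) and in 4 of 11 NF-kB genes at least 2-fold higher in ST-HSC (36.4%), namely Nfkb2, Nfkbia, Tnip1 and Bcl3. GAGGAAG was in none of the 11. A match describes the letters only.

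Surface and signature genes of LT-HSC, a list that includes Vwf and Slamf1, leaned towards LT-HSC. Of 25 members at the FPKM limit, 12 were at least 2-fold lower in ST-HSC, against 20.3% of all genes. Another 2 were higher, against 21.8%, and the list's median was -0.77. After Vwf and Slamf1, the largest differences were those of Clec1a (23.2 FPKM in LT-HSC, 2.15 in ST-HSC), Fhl1 (39.5 and 5.43) and the sulfotransferase gene Sult1a1 (161 and 29.5). Itga6, the integrin alpha 6 chain, stood at 43.0 and 8.23 FPKM. Mllt3, a cofactor of elongation known for stem cell maintenance, stood at 183 and 62.2, and Pdzk1ip1 at 735 and 268. Emcn, the surface sialomucin endomucin, was among the 2 members higher in ST-HSC (35.5 and 80.6 FPKM).

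In culture some of these genes differed in the same direction in part of the pairs. Vwf stood at 97.7 and 71.1 FPKM in LT-HSC at 2N and 4N, and was listed at 0 in ST-HSC at both and in both cell types at 2D and 4D. Slamf1 stood at 4.13 and 19.1 FPKM in LT-HSC at 2N and 4N and was listed at 0 in ST-HSC at every cultured time and in LT-HSC at 2D and 4D. Fhl1 was higher in LT-HSC in 4 of 4 cultured pairs, with 13.7, 6.94, 209.8 and 144 FPKM at 2N, 4N, 2D and 4D against 1.29, 0, 51.5 and 101 in ST-HSC. The median of the whole list in the cultured pairs was -1.84, -2.55, 0.70 and 0.59 at 2N, 4N, 2D and 4D. None of these genes passed the test over the cultured pairs (limma, described below; adjusted p = 0.724 for Vwf, 0.777 for Slamf1 and 0.409 for Fhl1).

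Genes of multipotent and lymphoid-primed progenitors leaned towards ST-HSC. Of 13 members at the FPKM limit, 8 were at least 2-fold higher in ST-HSC, against 21.8% of all genes. Another 2 were lower, against 20.3%, and the list's median was 1.08. Cd34, the surface glycoprotein used to part ST-HSC from LT-HSC, stood at 16.1 FPKM in LT-HSC, 421 in ST-HSC and 85.7 in MP, 24.6-fold higher in ST-HSC. Flt3, the receptor tyrosine kinase of multipotent progenitors, stood at 2.84, 106 and 7.44 FPKM (28.0-fold higher). Dntt, the terminal transferase of early lymphoid cells, stood at 0.391, 135 and 15.95 FPKM, and the TNF receptor family member Cd27 at 75.2, 342 and 13.6. Satb1, a chromatin organiser of lymphoid genes, stood at 5.89, 52.0 and 4.09, and Lsp1 at 302, 769.9 and 26.0. Cd48, which LT-HSC lack at the surface, stood at 17.6, 35.4 and 76.7 FPKM. ST-HSC was the highest of the 3 uncultured libraries for Cd34, Flt3, Dntt, Cd27, Satb1 and Lsp1, whereas MP was the highest for Cd48.

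The 2 members lower in ST-HSC were the signalling adaptor gene Tyrobp (195 FPKM in LT-HSC, 10.3 in ST-HSC, 342 in MP) and Plac8 (1604, 537 and 3496), each highest in MP. In the cultured pairs both were higher in ST-HSC in 4 of 4, the opposite of the uncultured pair. Flt3 was higher in ST-HSC in 4 of 4 cultured pairs as well, with 25.3, 25.7, 11.6 and 15.6 FPKM at 2N, 4N, 2D and 4D against 1.60, 3.39, 0.703 and 0 in LT-HSC. Its mean cultured difference was 3.22 (SE 0.458, limma adjusted p = 0.139). Cd34 was not set apart at 2N and 4N, where LT-HSC held 487 and 575 FPKM and ST-HSC 596 and 442. At 2D and 4D it stood at 220.3 and 155 in ST-HSC and at 9.19 and 0 in LT-HSC. Cd48 had a mean cultured difference of 3.57 (SE 0.413, limma adjusted p = 0.0965), higher in ST-HSC in 4 of 4 pairs.

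Genes of the NF-kB family and its feedback loop formed the list with the highest median in ST-HSC. Of 21 genes, 19 reached the FPKM limit, 16 of these were at least 2-fold higher in ST-HSC, 9 at least 4-fold, and none was 2-fold lower. Over all genes 21.8% were at least 2-fold higher, 9.35% at least 4-fold higher and 20.3% at least 2-fold lower. The list's median difference was 1.98. The list's summed FPKM was 0.165% of the total in LT-HSC, 0.769% in ST-HSC and 0.127% in MP, so LT-HSC and MP lay together and ST-HSC apart.

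All 5 subunit genes had a higher level in ST-HSC. Relb stood at 23.8 FPKM in LT-HSC, 259.5 in ST-HSC and 2.82 in MP, a 10.5-fold difference. Nfkb2, the partner of Relb in the alternative pathway, stood at 41.3, 131 and 16.8 FPKM. Rela stood at 163, 357 and 115, Nfkb1 at 102, 273 and 76.5, and Rel at 8.87, 15.5 and 1.31. Of these, Rel was the gene whose difference (0.74) was below 2-fold.

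Inhibitors and other genes of the NF-kB feedback loop were higher as well. Nfkbia, which encodes IkB-alpha and whose promoter is printed above, stood at 323 FPKM in LT-HSC, 1730.2 in ST-HSC and 415 in MP. Nfkbie stood at 17.7, 165 and 13.3 FPKM, Bcl3 at 19.4, 103 and 4.15, and Tnip1 at 34.9, 170.0 and 19.8. Tnfaip3, the gene of the deubiquitinase A20, stood at 35.1, 102 and 53.1 FPKM. Each was highest in ST-HSC.

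Among targets, Cd83, a surface marker of activated dendritic and B cells, stood at 9.46 FPKM in LT-HSC and 600.2 in ST-HSC and was listed at 0 in MP. That was the highest difference (5.85) among genes at 1 FPKM or more in both stem cell libraries, predicted genes aside. Traf1, a TNF receptor adaptor, stood at 8.79, 211 and 10.6 FPKM, and the chemokine genes Ccl3 and Ccl4 at 1.04 and 34.6 in LT-HSC, 85.1 and 159 in ST-HSC and 40.1 and 47.2 in MP. Cxcl2 was the member with a lower level in ST-HSC (42.6 and 27.9 FPKM). Tnf lay at 0 in LT-HSC and 4.88 FPKM in ST-HSC, and Il1b was listed at 0 in both.

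In the cultured pairs the list lay closer to 0. The median of the NF-kB list in the cultured pairs was -0.66, 0, 0 and 0.27 at 2N, 4N, 2D and 4D. Nfkbia at these times stood at 62.2, 16.7, 141 and 37.1 FPKM in LT-HSC and at 49.4, 32.4, 87.3 and 60.9 in ST-HSC, all below the lower of the uncultured levels. Traf1 lay at 5.08 FPKM or less in all 8 cultured libraries. Immediate early genes, which handling of cells also induces, had a median of -0.05 over 36 members. Of these, 4 were at least 2-fold higher in ST-HSC and 6 lower, against 21.8% and 20.3% of all genes. The list summed to 1.14% of the LT-HSC total, 1.21% of the ST-HSC total and 0.367% of the MP total. Its summed FPKM was 8068 in LT-HSC_0 and 8205 in ST-HSC_0, and 475.6 to 1154 in the 8 cultured stem cell libraries. The part of cell handling in the NF-kB difference was not tested.

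**Figure D3:**
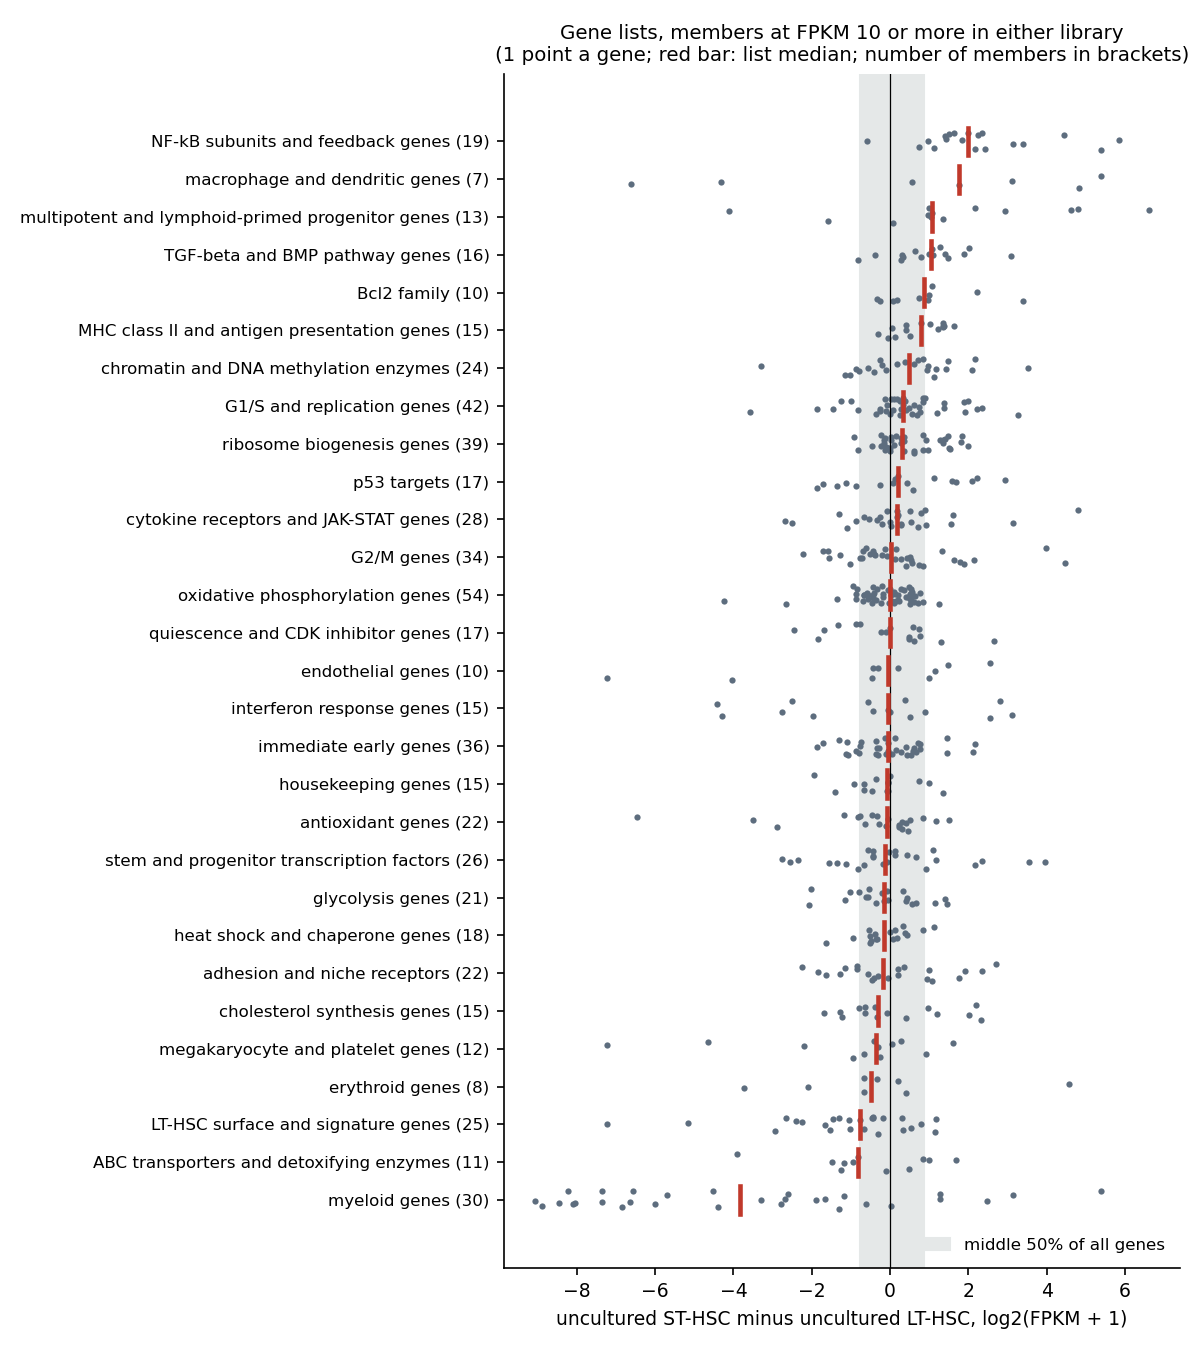
Difference of ST-HSC minus LT-HSC, log2(FPKM + 1), for each member (points) of each list with at least 7 members, ordered by their median (red bar), with the middle 50% of all genes shaded. NF-kB genes lie to the right with a median of 1.98 and myeloid genes to the left with a median of -3.84, while lists such as oxidative phosphorylation centre near 0.

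TGF-beta and BMP pathway genes also leaned towards ST-HSC. Of 16 members at the FPKM limit, 9 were at least 2-fold higher in ST-HSC, against 21.8% of all genes. None was 2-fold lower, against 20.3%, and the list's median was 1.04. That median was 0.80 with an FPKM limit of 1 and 0.62 with 10 added before the log. Among receptors, Tgfbr2 stood at 3.71 FPKM in LT-HSC and 16.4 in ST-HSC, and Tgfbr1 at 4.13 and 12.6. The signal transducers Smad2 and Smad3 stood at 2.33 and 15.6 FPKM in LT-HSC and at 27.4 and 66.2 in ST-HSC. Between LT-HSC and ST-HSC, Tgfbr2, Tgfbr1 and Smad2 reached the limit in ST-HSC alone, so their direction follows from the filter. The target genes Id1 and Id3 stood at 206 and 64.8 in LT-HSC and at 435 and 183 in ST-HSC. Smad2 was lower in LT-HSC_0 than in these other libraries: the cultured LT-HSC libraries held 10.6 to 25.9 FPKM and MP_0 25.3. The list's medians in the cultured pairs were -0.80, -0.32, -0.43 and -0.35, on the other side of 0 from the uncultured pair.

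The MHC class II genes, whose products present peptides to helper T cells, were high in both stem cell libraries and higher in ST-HSC. H2-Ab1 stood at 239 FPKM in LT-HSC, 741 in ST-HSC and 35.7 in MP. H2-Aa stood at 230.5 and 594, H2-Eb1 at 264 and 671, and the invariant chain gene Cd74 at 152 and 386, and all 3 were listed at 0 in MP. Of 15 members of the antigen presentation list, 7 were at least 2-fold higher in ST-HSC, against 21.8% of all genes. None was 2-fold lower, against 20.3%, none was 4-fold apart, and the median was 0.80. Ciita, which encodes the master activator of class II genes, was below the limit at 0.333 FPKM in LT-HSC and 0 in ST-HSC. Macrophage and dendritic cells also carry class II, and 7 of their 18 marker genes reached the FPKM limit. Of these 7, 4 were at least 2-fold higher in ST-HSC and 2 lower, against 21.8% and 20.3% of all genes. At 4-fold, 3 were higher and 2 lower, and the median was 1.76, or 1.13 with an FPKM limit of 1. The 18 genes summed to 0.0646% of the LT-HSC total and 0.107% of the ST-HSC total. Of the macrophage markers checked above, C1qa was listed at 0 in both, and Emr1 stood at 18.9 FPKM in LT-HSC and was listed at 0 in ST-HSC. These markers do not speak for dendritic cells or for the 4 members higher in ST-HSC. The part of macrophage and dendritic cells in the class II and NF-kB differences was not tested. In culture the levels were lower: H2-Ab1 stood at 1.32 to 29.5 FPKM in LT-HSC and 4.16 to 142 in ST-HSC, higher in ST-HSC in 4 of 4 pairs (limma adjusted p = 0.262).

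Transcription factors of stem and progenitor cells showed no common direction. Of 26 members, 6 were at least 2-fold higher in ST-HSC and 6 lower, and the median was -0.13. Both shares were near the 21.8% higher and 20.3% lower of all genes. Lower in ST-HSC were Tal1 (32.4 FPKM in LT-HSC and 3.94 in ST-HSC), Gfi1 (59.3 and 9.21), Mycn (10.9 and 1.33) and Lyl1 (36.1 and 11.6). Among those higher were Gfi1b, a repressor that acts in erythroid and megakaryocyte cells (0.686 and 25.2), Sox4 (25.8 and 135) and Tcf4 (10.3 and 49.9). Gfi1, a repressor used by both stem cells and granulocyte progenitors, stood at 99.4 FPKM in MP, and at 0 in LT-HSC at 2N and 4N. Of 21 Hox genes, Hoxa9 (41.1 and 15.1) and Hoxa5 (19.6 and 7.62) reached the FPKM limit, and both were more than 2-fold lower in ST-HSC. Of the reprogramming factors, Klf4 stood at 214 FPKM in LT-HSC and 240.1 in ST-HSC, and Myc at 119.8 and 32.4. Pou5f1 was listed at 0 in both, and Sox2 stood at 1.81 in LT-HSC and 0 in ST-HSC.

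Cell cycle lists were mixed. Of 42 G1/S and replication genes, 9 were at least 2-fold higher in ST-HSC and 4 lower (median 0.34). Of 34 G2/M genes, 7 were higher and 6 lower (median 0.02). Over all genes 21.8% were higher and 20.3% lower, so these shares were near or below the background. The replication licensing gene Cdc6 stood at 0.305 FPKM in LT-HSC and 11.5 in ST-HSC, and Mcm10 at 6.53 and 37.1. Rrm2, a ribonucleotide reductase subunit, stood the other way at 39.4 and 10.03. In mitosis, Kif23 stood at 0.432 and 31.0 FPKM and Ccnf at 0.668 and 25.5, while Cdc20 stood at 56.7 and 16.6 and Kif20a at 32.1 and 6.07. So the members named from each phase went both ways.

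Quiescence genes had a median of 0.00 over 17 members, with 2 at least 2-fold higher in ST-HSC and 4 lower. Over all genes the shares were 21.8% and 20.3%. Ndn, the gene of necdin, a growth suppressor of stem cells, stood at 49.3 FPKM in LT-HSC and 8.17 in ST-HSC and was listed at 0 in MP. In culture it stood at 45.6, 48.4, 78.9 and 83.0 FPKM in LT-HSC at 2N, 4N, 2D and 4D, and at 11.5, 0.492, 13.3 and 2.15 in ST-HSC. Ndn was named by the size of its uncultured difference, so the uncultured pair is no separate check. Ndn was lower in ST-HSC in 4 of 4 cultured pairs, as were 6.33% of all genes at the FPKM limit. Its cultured difference of -3.54 (SE 0.594) did not pass the test (limma adjusted p = 0.187). Aldh1a1, a retinaldehyde dehydrogenase gene outside this list, stood at 188 FPKM in LT-HSC and 11.5 in ST-HSC uncultured. At 2N and 4N it stood at 151 and 119 in LT-HSC against 11.1 and 0 in ST-HSC. At 2D the order was the opposite, 16.7 in LT-HSC and 51.0 in ST-HSC.

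**Figure D4:**
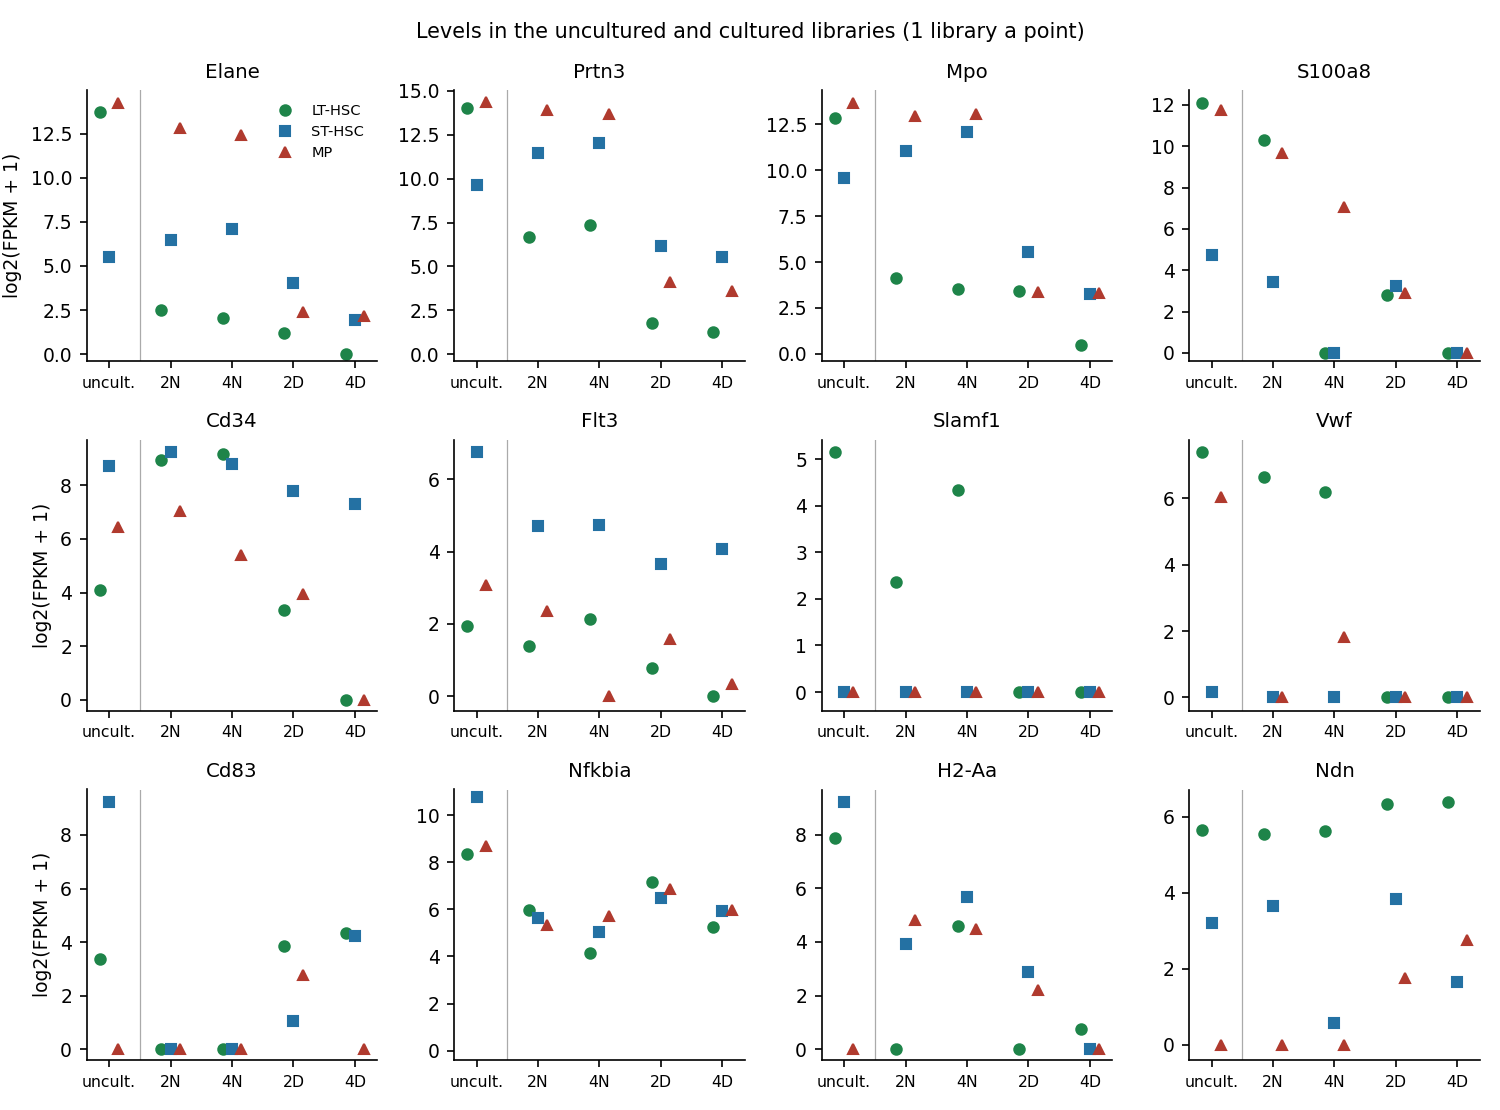
Levels of 12 genes, log2(FPKM + 1) (y axis), in LT-HSC, ST-HSC and MP, uncultured and at 2N, 4N, 2D and 4D (x axis), 1 library a point. Elane, Prtn3 and Mpo are higher in LT-HSC than in ST-HSC uncultured and lower in all 4 cultured pairs, whereas Flt3 is higher in ST-HSC and Ndn higher in LT-HSC throughout.

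Genes outside the lists filled part of the largest differences. Among genes at 1 FPKM or more in both libraries, the largest in the direction of ST-HSC included Ighm, the immunoglobulin mu chain gene (1.42 FPKM in LT-HSC, 111 in ST-HSC, 80.1 in MP), Phldb1 (1.34, 88.7 and 5.42), Rab20 (4.12, 109 and 5.86) and Polg2 (2.32, 64.9 and 14.0). Zmynd8 (1.70, 45.7 and 6.83), Rhof (4.66, 93.3 and 4.06) and Anxa2, annexin A2 (54.4, 952 and 116), completed this set of 12 with Cd83, Ccl3, Flt3, Cd34 and Traf1. Anxa2 was higher in ST-HSC in 4 of 4 cultured pairs too, by 1.62 on average (SE 0.267, limma adjusted p = 0.187). In the direction of LT-HSC, the set held the myeloid genes above with Hp, haptoglobin (391, 3.13 and 325), Cst7, a cystatin (294, 1.83 and 539), and the adhesion molecule gene Vcam1 (219, 1.23 and 88.2).

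Genes listed at 0 in the other library had lower levels. The highest of those listed at 0 in ST-HSC were Trem3 at 357 FPKM in LT-HSC and 310.1 in MP, Ly6c2, Mgst2 (188 and 278), Clu, clusterin (111 and 9.90), Tfpt (92.2 and 36.7), Slpi (83.1 and 298), Snap47 (58.8 and 6.97) and Mogat2 (53.7 and 22.2). Slpi, a leukocyte protease inhibitor, is made by neutrophils, and Clu was higher in LT-HSC at 2N and 4N as well (70.2 and 35.6 FPKM against 6.17 and 11.9) and lower at 2D and 4D (8.93 and 1.34 against 18.0 and 5.08). The highest of those listed at 0 in LT-HSC were Stk39 at 73.7 FPKM in ST-HSC, G0s2 (60.9), Vegfb (56.4), Trappc1 (49.4), Lgals3, galectin 3 (48.8), Slx4 (48.6), Cenpv (44.0) and Tppp3 (43.5). Vegfb, Trappc1 and Cenpv were above 10 FPKM in all 8 cultured stem cell libraries, so for these LT-HSC_0 stood apart from its own cell type.

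The same contrast was tested in the 4 cultured pairs with limma on log2(FPKM + 1), with condition as block and Benjamini-Hochberg adjustment over 12211 genes. Single libraries of different conditions stand in for replicates, so the p-values measure the spread among culture conditions. The test called 1 gene higher in ST-HSC (0.00819%) and 0 lower (0.0%), with 821 genes at an unadjusted p under 0.05. No gene past 4-fold in the uncultured pair was called in the same direction. Of the 748 genes at least 4-fold higher in uncultured ST-HSC, 61 (8.16%) were higher in ST-HSC in 4 of 4 cultured pairs, against 7.03% of all 7998 genes. Of the 743 lower ones, 40 (5.38%) were lower in 4 of 4, against 6.33% of all genes. Both shares are near the background.

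The gene called was Prtn3, in the direction opposite to the uncultured pair. It stood at 102, 165, 2.42 and 1.44 FPKM in LT-HSC at 2N, 4N, 2D and 4D and at 2874, 4277, 70.5 and 45.9 in ST-HSC. The cultured difference was 4.54 (SE 0.231, adjusted p = 0.00122), higher in ST-HSC in 4 of 4 pairs. Without the 4N pair the adjusted p was 0.0669. Mpo and Elane had the same order in culture without passing the test: Mpo stood at 16.8 and 10.7 FPKM in LT-HSC at 2N and 4N against 2109 and 4315 in ST-HSC (adjusted p = 0.409), and Elane at 4.60 and 3.12 against 88.1 and 137 (adjusted p = 0.187). The late granule genes differed from these in LT-HSC at 2N, where S100a8 stood at 1275, S100a9 at 864 and Camp at 1266 FPKM, against 9.92, 0 and 0 in ST-HSC. At 4N all 3 were below 4 FPKM in both cell types.

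A second limma fit over 10 libraries set the uncultured difference against the mean cultured one. The uncultured side is 1 library a cell type, so its spread came from the 4 cultured pairs alone, and the p-values assume that uncultured libraries vary as those do, which could not be checked. Of 12419 genes it called 1 higher (0.00805%) and 2 lower (0.0161%), with 1607 at an unadjusted p under 0.05. Prtn3 had an uncultured difference of -4.39 and departed from the cultured mean by -8.92 (SE 0.447, limma adjusted p = 0.00285). Mrps24, a mitochondrial ribosomal protein gene, stood at 0.677 FPKM in LT-HSC_0 and 83.1 in ST-HSC_0 and at 349 to 508 in the 8 cultured libraries. It departed by 5.62 (SE 0.430, adjusted p = 0.0247). G6pdx, glucose-6-phosphate dehydrogenase, stood at 120.2 FPKM in LT-HSC_0 and 0.377 in ST-HSC_0 and at 45.7 to 119.5 in the cultured libraries, a departure of -6.88 (SE 0.605, adjusted p = 0.0445). Mrps24 and G6pdx were thus below 1 FPKM in 1 uncultured library and above 10 FPKM in all cultured ones. Without limma's trend and robust options no gene was called. The calls for these 2 genes were lost without any 1 of the 4 cultured pairs (adjusted p from 0.175 to 0.289), and that of Prtn3 without the 2N pair (0.0563) or the 4N pair (0.0974).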

How the data were processed

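RNA was measured in 18 libraries, of which the uncultured LT-HSC and ST-HSC libraries, the 8 cultured ones and MP were used. The deposited table holds FPKM, a unit inferred from its values. Per the submitters' processing notes the authors used TopHat, Cufflinks and genome build mm9. Tool versions, like the annotation, were not given in the sources used here. Depth is unknown: among 360 genes between 0 and 1 FPKM in both libraries at most 7 shared a ratio within 0.01 on the log2 scale, so reads could not be recovered, and a 0 is given as listed at 0. Oligo-dT priming and PCR from 25 cells favour 3′ ends and lose rare transcripts. The 158 symbols on several of the 36818 entries were summed.

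Values were log2(FPKM + 1), without further scaling. Uncultured differences have no test. For the cultured pairs limma 3.58.1 under R 4.3.3 was used (trend, robust, two-sided, threshold 0.05, mean FPKM of 1 or more, condition as block, 3 residual degrees of freedom), and so was the departure of the uncultured pair from them. Counts and plots came from pandas 2.3.3, numpy 2.4.6 and matplotlib 3.10.9 under Python 3.11.15. On simulated data with 50 genes at each size, the cultured fit (12211 genes) found 22% of log2 shifts of 2 and 68% of shifts of 4, and the departure fit (12419 genes) 0% of either.

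The comparison, the 36 lists (953 entries, 3 not found, 5 matched by Ensembl ID) and the members were chosen with earlier results of these data known. Genes were named by rule: the 12 largest differences each way at 1 FPKM or more in both libraries, the 8 highest each way listed at 0 in the other, up to 8 members a list by size of difference, all markers and factors, genes called by a fit, and those next to the FPKM limit. Predicted genes were not named, and a few genes that the rule names are not reported here. Other list members were named for their role after their values were seen: Sfpi1, Cebpa, Csf2rb, Csf2rb2, Cd68, Ltf, Mmp8, Ly6g, Cebpd, Csf2ra, Csf3r, Fcgr3 and Clec12a (motif count), Pdzk1ip1, Emcn, Rela, Rel, Nfkb1, Nfkb2, Tnfaip3, Ccl4, Cxcl2, Tnf, Il1b, Ciita and Bax. Alternatives were other pseudocounts, scalings, FPKM limits, fit options and leaving out pairs; leaving out genes high in cultured MP was chosen after seeing the data. Promoters are RefSeq's (GRCm38.p6), matched by symbol, and no coordinates are given for the values.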

Additional observations from a re-analysis of the deposited data

Results flagged for a closer look

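For 3 genes the ST-HSC minus LT-HSC difference was called as departing from the mean of the 4 cultured pairs by limma. The uncultured side is 1 library a cell type, so the spread behind these calls is that of the cultured pairs. The calls fell to 0 without limma's trend and robust options, and to 0 or 1 on leaving out any 1 pair. Mrps24 departed by 5.62 on the log2(FPKM + 1) scale, with a low value in uncultured LT-HSC. Prtn3 departed by -8.92, being lower in ST-HSC uncultured and higher in ST-HSC in 4 of 4 cultured pairs. G6pdx departed by -6.88, with a low value in uncultured ST-HSC. The cause of these departures was not tested.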

How the results depend on the processing

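With 10 added before the log, 139 genes were at least 4-fold higher in uncultured ST-HSC and 149 lower (3.6% in all), and 3 lists had a median at least 2-fold higher and 1 lower, in place of 5 and 2. An FPKM limit of 1 gave 1271 higher and 1257 lower, a limit of 30 gave 293 and 271 (12.1%), and requiring values above 0 in both libraries gave 492 lower. With 0.1 added the counts were 811 and 815, with median scaling 719 and 768, and with quantile normalisation 747 and 748. Of the list medians, 274 stayed within the set margin and 14 moved. The myeloid median ranged from -4.51 (limit of 30) to -2.78 (without genes high in cultured MP), the cholesterol synthesis median of -0.32 became 0.41 at a limit of 30, and the mast cell and basophil median of -0.60, over 3 members, became 0.26 at a limit of 1 and 0.02 at 30. Some other medians within 0.1 of 0 crossed it.

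Leaving out the condition block (the labels give no replicate numbers, so condition is the only pairing) left 0 genes called higher in culture, as did 10 added before the log and limma without trend and robust, with 495, 775 and 795 genes at an unadjusted p under 0.05. The N pairs alone gave 48 higher and 37 lower, and the D pairs alone 6 and 2. Leaving out each cultured pair in turn gave 0 to 6 higher and 0 lower. The departure fit called 33 higher and 29 lower with 0.1 added, 39 and 50 with 10 added, 0 and 1 with no filter, 4 and 5 at a mean FPKM of 10, and 0 and 0 without trend and robust (1650 at an unadjusted p under 0.05). Leaving out each pair gave 0 to 0 higher and 0 to 1 lower, with 1414 to 1525 at an unadjusted p under 0.05.

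With 1 library of 25 cells a group, unknown depth and PCR, a difference between these libraries cannot be told apart from one between the cells picked. Low genes carry most of the large differences, and 0 can be a failed estimate.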

Other observations

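Interferon response genes split between the uncultured libraries. Of 15 members at the FPKM limit, 3 were at least 2-fold higher in ST-HSC and 5 lower, with a median of -0.04. Over all genes 21.8% were higher and 20.3% lower. Isg15, a ubiquitin-like modifier, stood at 20.4 FPKM in LT-HSC and was listed at 0 in ST-HSC, as was the nucleic acid sensor Zbp1 (18.5). Bst2, tetherin, stood the other way at 2.19 in LT-HSC and 26.5 in ST-HSC, with Gbp3 at 8.33 and 63.8 and Irf7 at 3.43 and 25.2. The members named therefore did not share a direction.

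Of 10 Bcl2 family members, 3 were at least 2-fold higher in ST-HSC, near the 21.8% of all genes, and none lower, against 20.3%. The median was 0.86, and 0.13 with an FPKM limit of 1. Of the 3, Bcl2l11, the gene of Bim, stood at 6.50 FPKM in LT-HSC, 77.6 in ST-HSC and 18.3 in MP. Bbc3, the gene of Puma, stood at 8.32, 42.6 and 15.9. Between LT-HSC and ST-HSC, both genes reached the FPKM limit in ST-HSC alone, so their direction follows from the filter. Bad stood at 18.0, 39.2 and 55.2, while Bax, of the same family, was level at 32.8 and 34.8 in LT-HSC and ST-HSC. Among p53 targets, 6 of 17 were higher and 4 lower, Gadd45a at 436 FPKM in LT-HSC and 132 in ST-HSC among the latter.

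Among chromatin enzymes, 7 of 24 were at least 2-fold higher in ST-HSC and 3 lower (median 0.49), shares near the 21.8% and below the 20.3% of all genes. The histone demethylase gene Kdm6b stood at 2.62 FPKM in LT-HSC and 40.6 in ST-HSC, Kdm1a at 16.7 and 74.9, and the Polycomb genes Ezh2 and Eed at 34.1 and 11.0 in LT-HSC and 94.5 and 32.7 in ST-HSC. Suz12, their partner in the same complex, stood the other way at 20.6 and 8.76. Ribosome biogenesis genes held 10 of 39 members at least 2-fold higher in ST-HSC and none lower (median 0.31), the first again near the share of all genes, among them Nolc1 (17.9 and 74.0) and Bop1 (8.46 and 33.1). Oxidative phosphorylation genes were close to level, with 1 of 54 at least 2-fold higher, 3 lower and a median of 0.01.

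Receptors for niche and matrix contact showed no common direction. Of 22 members, 6 were at least 2-fold higher in ST-HSC and 5 lower, with a median of -0.17. Both shares were near the 21.8% and 20.3% of all genes. Cd44, the hyaluronan receptor, stood at 27.3 FPKM in LT-HSC, 183 in ST-HSC and 83.4 in MP, and Selplg, the selectin ligand, at 94.6, 324 and 108. Cxcr4, the receptor for Cxcl12, stood at 15.4 in LT-HSC, 5.80 in ST-HSC and 2.76 in MP, and Itgb2 at 40.1, 10.5 and 19.0. Apart from these receptors, the efflux pump gene Abcg2 stood at 69.3, 24.3 and 98.7 FPKM. None of these differences between the uncultured libraries was tested.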
